A study of Mus musculus with 24 samples.

Results

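The Hox genes are described here: the 39 protein-coding genes of the mouse (RefSeq, mm10) whose symbol is Hoxa, Hoxb, Hoxc or Hoxd followed by a number, of 21774 protein-coding genes in all. They were chosen by symbol alone. They stand in 4 clusters, with 11 genes in HoxA on chromosome 6, 10 in HoxB on chromosome 11, 9 in HoxC on chromosome 15 and 9 in HoxD on chromosome 2. The measurement was ChIP-Seq of H3K27ac, acetylation of histone H3 at a lysine that marks active promoters and enhancers, in myofibers isolated from the left quadriceps of C57BL/6J mice. Males and females received prednisone (1 mg/kg, i.p.) once a week for 4 weeks from 10 weeks of age, or vehicle (DMSO in PBS), and muscle was taken after the fifth weekly injection. The 8 groups were male vehicle, male day 4, male day 6, male day 8, female vehicle, female day 4, female day 6 and female day 8, where the day counts from the last prednisone injection, and animals on weekly prednisone received vehicle on the days between injections. Each group had 2 H3K27ac libraries and 1 input library. The fibers were held back by a strainer after collagenase digestion, a preparation that can also retain other cells of the muscle.

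One peak list was deposited per group, so no value below has a replicate error and no difference between groups was tested. Differences between lists are given as descriptions of those lists. The tags behind a list ranged from 7.52 megatags (M, male day 4) to 50.5 M (male day 6), and the number of peaks ranged from 17482 (male day 4) to 123249 (female day 6). Peaks covered 2.44% of the genome in male vehicle, 0.465% in male day 4, 0.98% in male day 6, 0.624% in male day 8, 0.984% in female vehicle, 2.61% in female day 4, 5.84% in female day 6 and 4.03% in female day 8. Because the lists differ this much in length, counts of Hox genes per list are set beside the percentage of all protein-coding genes counted in the same way.

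Hox genes encode homeodomain transcription factors that give cells of the embryo their position along the head-to-tail axis and, in the limb, along the axis from shoulder or hip to the digits. Genes of a cluster lie in the order in which they are used along the body: low numbers are used anteriorly, high numbers posteriorly, and genes with the same number in different clusters (paralogues) are related by descent. In the general scheme of the limb, the paralogues numbered 9 and 10 act in the upper segment, those numbered 11 in the middle segment and those numbered 13 in the hand and foot. Adult cells of mesenchymal origin often keep a record of the position they came from in the Hox genes that remain active. Polycomb proteins keep unused Hox genes silent by methylating the lysine that H3K27ac acetylates, and Trithorax proteins oppose them.

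A promoter peak was a peak that overlapped by 1 bp or more the window of 2 kb to each side of a gene's start, a window of 4001 bp. The start was the curated RefSeq transcript start nearest the coding sequence. By this measure 8 Hox genes had a promoter peak in all 8 lists: Hoxa3, Hoxa4, Hoxa7, Hoxa9, Hoxa10, Hoxb2, Hoxc9 and Hoxc10. They were 20.5% of the Hox genes, where 16.2% of all protein-coding genes had a promoter peak in all 8 lists. Hoxc13 and Hoxd11 had one in none, which were 5.13% of the Hox genes against 24.7% of all protein-coding genes. Hoxb5 and Hoxb7 had one in 7 lists. Hoxa13, Hoxb1, Hoxd1 and Hoxd12 each had one in a single list.

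**Figure D1:**
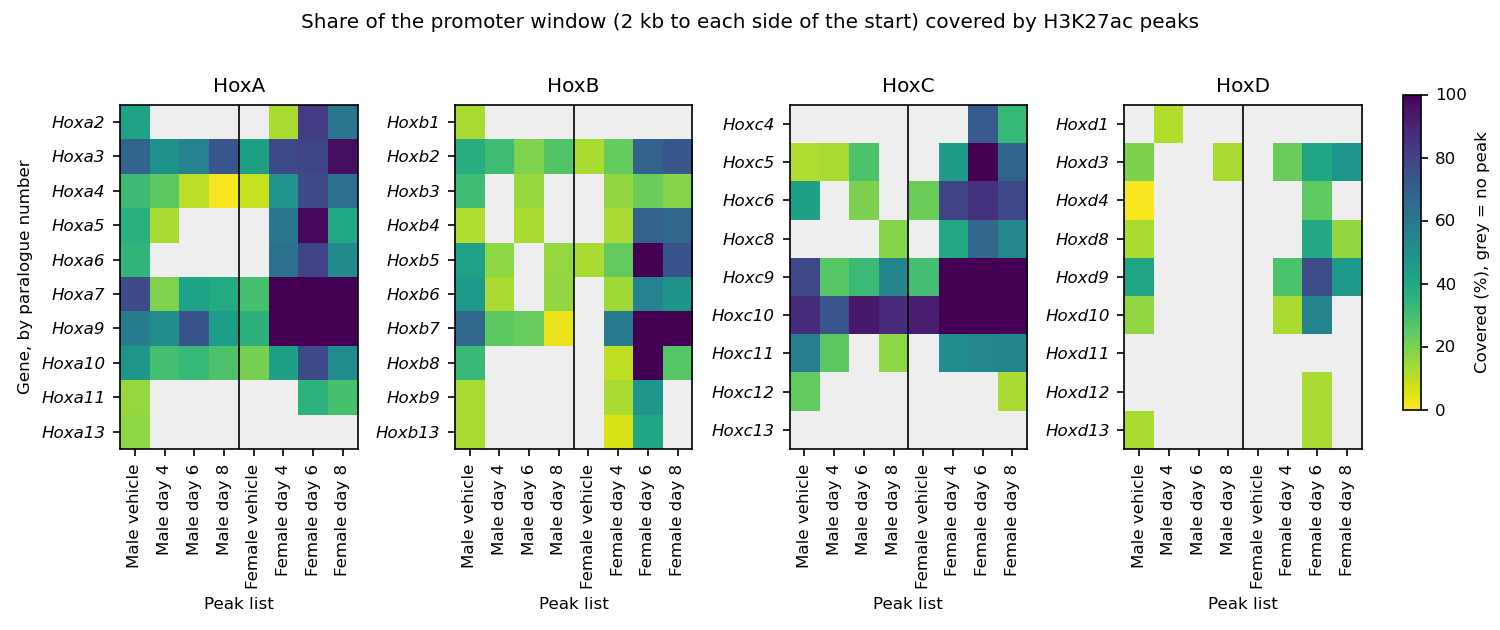
Percent of the promoter window (2 kb to each side of the start) covered by H3K27ac peaks, for Hox genes (rows, by paralogue number) in the 8 peak lists (columns, males left and females right of the vertical line); grey cells hold no peak. Hoxc10 was covered by at least 73.8% in every list, and HoxD was empty in male day 6 and female vehicle.

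In posterior HoxA, the peak with the most tags at the Hoxa10 start ended near that start in every list. At female days 6 and 8 further peaks followed after 0.648 and 2.0 kb. The promoters on both sides of this border are shown. Each is 300 bases from RefSeq (GRCm38, the assembly called mm10), from 250 bases before the start to 50 after it, on the minus strand of chromosome 6, and capitals mark matches to CANNTG (the E-box, bound by the muscle regulators of the MyoD family among others) or TATAAA on either strand. Hoxa9 (chr6:52227321-52227620) and Hoxa10 (chr6:52234890-52235189) had a promoter peak in all 8 lists. Hoxa11 (chr6:52245761-52246060) had one in 3 lists and Hoxa13 (chr6:52260831-52261130) in 1.
Hoxa9: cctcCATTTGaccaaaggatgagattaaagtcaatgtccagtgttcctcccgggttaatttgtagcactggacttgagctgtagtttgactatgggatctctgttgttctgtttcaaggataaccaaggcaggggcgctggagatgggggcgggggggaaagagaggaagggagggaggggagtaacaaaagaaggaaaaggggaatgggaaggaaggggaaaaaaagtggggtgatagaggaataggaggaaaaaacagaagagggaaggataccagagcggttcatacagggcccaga
Hoxa10: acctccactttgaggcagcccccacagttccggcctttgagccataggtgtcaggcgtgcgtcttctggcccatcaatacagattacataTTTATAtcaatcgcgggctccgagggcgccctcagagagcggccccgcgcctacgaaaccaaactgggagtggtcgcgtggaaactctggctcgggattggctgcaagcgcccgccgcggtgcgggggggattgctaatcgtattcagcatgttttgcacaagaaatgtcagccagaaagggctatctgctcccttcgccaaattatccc
Hoxa11: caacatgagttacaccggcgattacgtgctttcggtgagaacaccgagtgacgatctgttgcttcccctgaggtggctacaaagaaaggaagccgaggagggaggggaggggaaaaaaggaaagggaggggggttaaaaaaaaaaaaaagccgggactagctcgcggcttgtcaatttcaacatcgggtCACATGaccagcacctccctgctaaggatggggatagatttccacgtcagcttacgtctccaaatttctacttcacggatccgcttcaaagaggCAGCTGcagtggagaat
Hoxa13: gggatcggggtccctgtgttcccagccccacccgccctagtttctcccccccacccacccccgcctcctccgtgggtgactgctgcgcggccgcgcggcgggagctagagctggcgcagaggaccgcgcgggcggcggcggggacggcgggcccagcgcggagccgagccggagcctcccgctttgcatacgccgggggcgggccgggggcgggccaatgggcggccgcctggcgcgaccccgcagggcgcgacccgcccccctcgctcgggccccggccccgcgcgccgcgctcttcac

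The Hoxa9 window held 4 CpG dinucleotides, Hoxa10 held 21, Hoxa11 held 15 and Hoxa13 held 45, against a median of 7.0 over 32851 RefSeq promoters of the same length. The CpG-poor Hoxa9 and the CpG-richer Hoxa10 both stood on the acetylated side of the border. The RefSeq table held a promoter for 22 of the 39 Hox genes, with a median of 17.5 CpG. Among these, the 4 with a promoter peak in all 8 lists had 4 to 21 CpG, with a median of 14.5. The 5 with a promoter peak in at most 1 list had 10 to 45, with a median of 25.0. Whether CpG content goes with the calls was not tested. An E-box was in 17 of the 22 Hox promoters (77.3%, against 72.3% of all promoters). TATAAA was in 4, namely Hoxa10, Hoxb8, Hoxd4 and Hoxd13 (18.2% against 13.6%). TGATNNAT, a site for PBX and HOX proteins bound side by side, was in 4, namely Hoxa2, Hoxb1, Hoxb8 and Hoxd11 (18.2% against 8.85%). ACANNNTGT, a consensus for the glucocorticoid receptor, was in 0 of the 22, where 6.85% of all promoters held it. The MEF2 consensus was in 0 of the 22 (0.557% of all promoters), as was the DR5 form of the retinoic acid response element (0.00913%). Both strands were searched for every motif, and in 0 of the 22 promoters did matches to different motifs share a base. A match is a run of letters and not a measured binding site, and the absence of one says only that these letters are not in this window.

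Along HoxA, the stretch from Hoxa7 to Hoxa10 was acetylated in all 8 lists. Hoxa7, used in the trunk, had 76.7% of its promoter window covered in male vehicle, 19.5% at male day 4, 41.8% at male day 6, 38.8% at male day 8, 29.1% in female vehicle and 100% at female days 4, 6 and 8. Hoxa9, which acts in the upper limb segment and in blood progenitors, had 57.8%, 50.7%, 73.9% and 44.4% in the male lists in the same order, 35.6% in female vehicle and 100% in the other 3 female lists. Hoxa10, needed in the limb and the uterus, had 47.0%, 29.9%, 33.2% and 27.9% in the male lists and 20.7%, 43.5%, 77.0% and 51.8% in the female lists. For all 3 genes no list exceeded female days 6 and 8, which female day 4 equaled at Hoxa7 and Hoxa9, and female vehicle was below male vehicle. The interval between the starts of Hoxa9 and Hoxa10 (7.57 kb) was covered by 42.0% (male day 8) to 100% (female days 6 and 8), with a median of 65.8%.

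The peak with the most tags at Hoxa10 stopped close to the start in every list. The posterior edge of the peak at Hoxa10 was 0.12 kb short of the start in male vehicle, 0.806 kb short at male day 4, 0.332 kb short at male day 6, 0.164 kb beyond it at male day 8, 1.17 kb short in female vehicle, 0.26 kb short at female day 4, 0.579 kb beyond it at female day 6 and 0.073 kb beyond it at female day 8. All 8 edges thus lay within 1.17 kb of the start, and the peaks themselves ranged in length from 1116 bp (male day 8) to 19445 bp (female day 8). The peak had to overlap the promoter window, so an edge short of the start could not lie more than 2 kb from it. The next peak on the posterior side was 11.1 kb away in male vehicle, between 43.8 and 265 kb away in the other 3 male lists, 214 kb in female vehicle and 212 kb at female day 4. It was 0.648 kb away at female day 6 and 2.0 kb at female day 8.

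The interval from the Hoxa10 start to the Hoxa11 start (10.9 kb) held no covered base in 5 of the 8 lists, 1.52% at male day 8, 26.4% at female day 6 and 27.8% at female day 8. Hoxa10 has another curated start in this interval, 5.92 kb posterior to the first, and that start had a promoter peak in the female day 6 and day 8 lists and in no other. Hoxa11, which patterns the middle limb segment and the uterus, had 15.9% of its window covered in male vehicle, 35.2% at female day 6, 29.1% at female day 8 and none in the other 5 lists. Hoxa13, which patterns the hand, foot and hindgut, had 17% in male vehicle and none in the other 7 lists. Its window there was touched by a single peak of 679 bp with 4.37 times the tags of the input.

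The anterior side of HoxA had less coverage and more difference between lists. Hoxa4 had a promoter peak in all 8 lists, with the window covered between 1.45% (male day 8) and 76.7% (female day 6) and a median of 28.2%. Hoxa3 had 43.0% (female vehicle) to 96.3% (female day 8), but its curated start lies between those of Hoxa6 and Hoxa7, so its window belongs to the Hoxa7 side of the cluster. Hoxa5 had a promoter peak in 5 lists, and Hoxa2 and Hoxa6 in 4 each. At Hoxa6 these were male vehicle (34.2%) and female days 4, 6 and 8 (62.5%, 79.6% and 52.0%), with none in female vehicle or in the 3 male lists after prednisone. The interval from Hoxa4 to Hoxa5 (12.9 kb) had no covered base in 3 lists and a median of 7.7%. In male vehicle promoter peaks reached Hoxa13 (54.9% of all protein-coding genes had one in that list), and no border could be drawn in that list. A border with every gene on its proper side was found in 2 lists, female day 6 and female day 8, both between Hoxa11 and Hoxa13. In the other 5 lists the last gene with a promoter peak was Hoxa10.

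**Figure D2:**
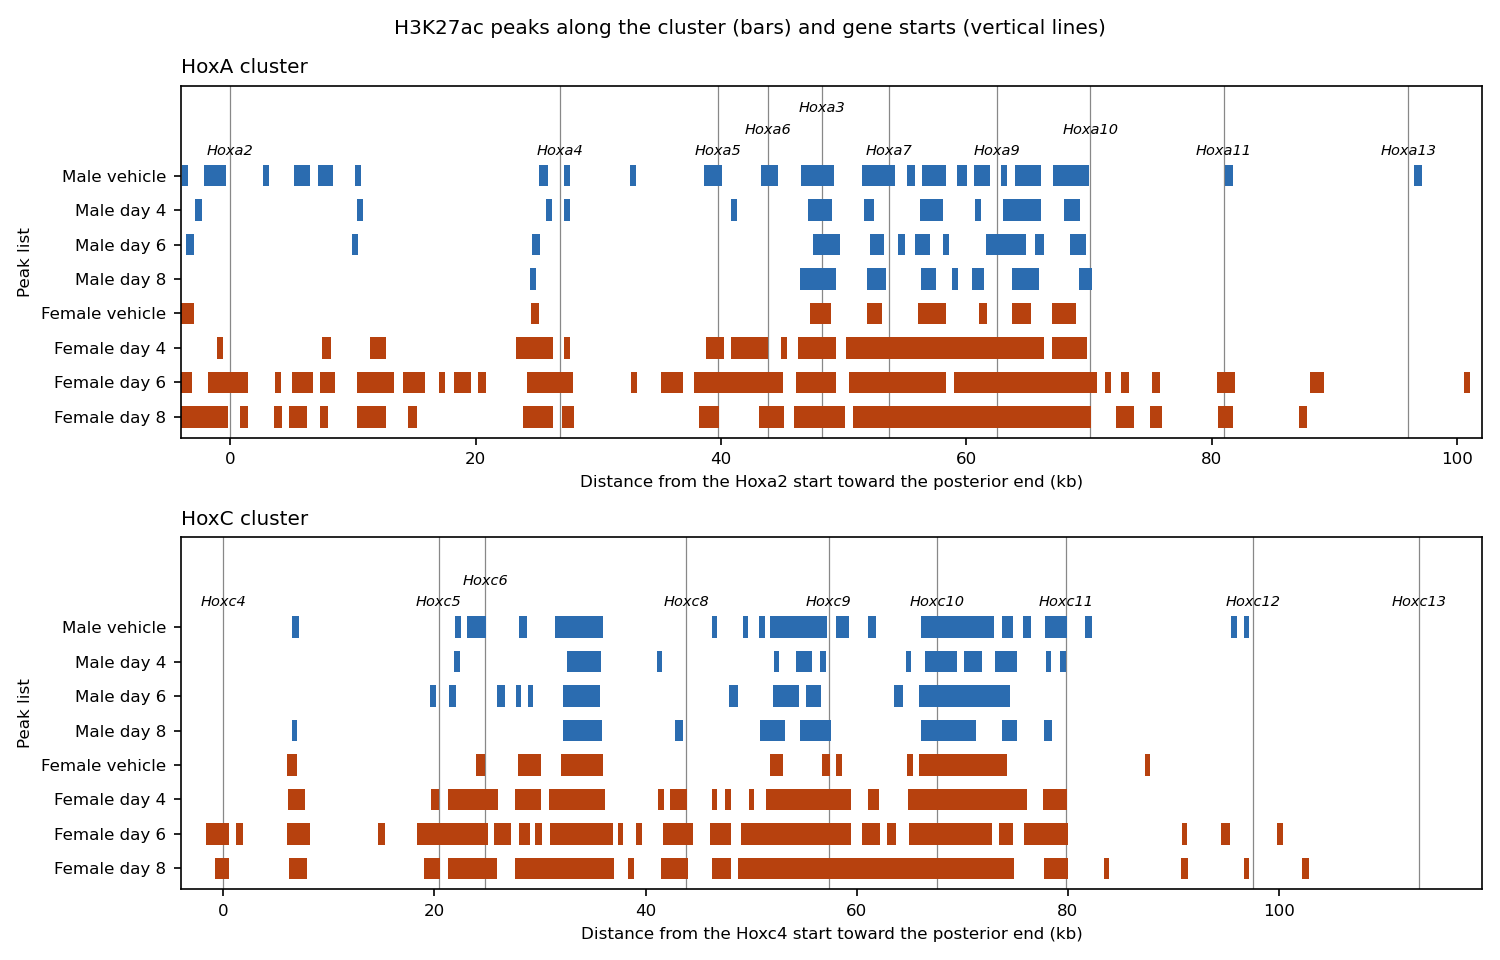
H3K27ac peaks (bars, blue for male and brown for female lists) along HoxA (top) and HoxC (bottom), against the distance in kb from the start of the most anterior gene shown toward the posterior end; vertical lines mark gene starts. In HoxA the bar at Hoxa10 ends within 1.17 kb of its start in every list, and in 5 lists no bar covers any base between the Hoxa10 and Hoxa11 starts. In HoxC a bar covers the Hoxc10 start and reaches at least 1.88 kb posterior to it in every list.

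HoxC was acetylated at Hoxc9 and Hoxc10 in all 8 lists. Peaks covered more of its span than of HoxA in 6 of the 8 lists, the exceptions being male vehicle (23.6% against 25.2%) and female day 6 (45.5% against 51.2%). Hoxc10, a gene known for its use in the hindlimb and not the forelimb, had 87.3% of its window covered in male vehicle, 73.8% at male day 4, 93.2% at male day 6, 87.9% at male day 8, 91.8% in female vehicle and 100% at female days 4, 6 and 8. Its lowest value, at male day 4, came from the list with the fewest tags. Its median over the lists, 92.5%, was the highest of the 39 genes. Hoxc9, its neighbor, had 78.5%, 26.1%, 31.7% and 54.7% in the male lists, 29.9% in female vehicle and 100% in the other 3 female lists.

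The peak at Hoxc10 was among the longer peaks of its list. In female vehicle it was 8364 bp and the 3rd longest of 38861 peaks. At male day 6 it was 8697 bp and 10th of 32188, at male day 8 it was 5242 bp and 40th of 20499, and in male vehicle it was 6876 bp and 74th of 87600. At female day 4 it was 11319 bp (110th of 67503), and at female day 8 a single peak of 26164 bp (37th of 81696) ran from posterior of Hoxc10 past Hoxc9. In 2 lists it was not the longest of the cluster: at male day 4 it was 2953 bp (142nd of 17482) beside a peak of 3205 bp anterior to Hoxc8, and at female day 6 it was 7813 bp (1637th of 123249) beside a peak of 10413 bp at Hoxc9.

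The peak at Hoxc10 ran further past its start than the peak at Hoxa10 did. The posterior edge of the peak lay 5.38 kb beyond the Hoxc10 start in male vehicle, 1.88, 6.97 and 3.73 kb beyond it at male days 4, 6 and 8, 6.69 kb in female vehicle and 8.57, 5.23 and 7.32 kb at female days 4, 6 and 8. All 8 edges were thus posterior to the start, by 1.88 kb or more, whereas the edges at Hoxa10 lay at most 0.579 kb beyond it. Between Hoxc10 and Hoxc11 (12.3 kb) coverage ranged from 48.3% at male day 8 to 87.5% at female day 4. Between Hoxc11 and Hoxc12 (17.7 kb) it ranged from none in 3 lists to 10.3% at female day 8.

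Hoxc11, of the middle limb segment, had a promoter peak in 6 lists: 57.2% of the window in male vehicle, 25.0% at male day 4, 17% at male day 8, and 51.3%, 53.9% and 54.7% at female days 4, 6 and 8. It had none at male day 6 or in female vehicle. In 5 of the 6 lists the posterior edge lay within 0.188 kb of the Hoxc11 start, and at male day 8 it stopped 1.32 kb short. Hoxc12 had 24% in male vehicle, 12.5% at female day 8 and none elsewhere. Hoxc13, known for its part in hair and nails, had no promoter peak in any list. Of the anterior genes, Hoxc5 and Hoxc6 had a promoter peak in 6 lists each, Hoxc8 in 4 and Hoxc4 in 2 (71.4% at female day 6 and 33.0% at female day 8). Borders with every gene on its proper side were found at female day 6, between Hoxc11 and Hoxc12, and at female day 8, between Hoxc12 and Hoxc13.

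The bases covered in every list were counted over each cluster with 5 kb to each side. There were 10 such segments with 12038 bp in all: 5 in HoxC (8201 bp), 4 in HoxA (3378 bp), 1 in HoxB (459 bp) and 0 in HoxD. Over the genome 0.0791% of bases were covered in all 8 lists. The longest segment (3070 bp, chr15:102998728-103001797) lay within the Hoxc6 gene, 9.3 kb upstream of its curated start and at predicted starts of the gene. The next (2954 bp, chr15:102964919-102967872) held the Hoxc10 start, and the third in length (1491 bp, chr6:52212353-52213843) held the Hoxa3 start between Hoxa6 and Hoxa7. The only segment of HoxB (chr11:96352947-96353405) lay within Hoxb2, 1.54 kb downstream of its start.

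Of the 10 segments, 3 touched no annotated exon, and 300 bases from the center of the longest of these in each of HoxA and HoxC are shown as the stretches outside genes that every list called. The HoxA stretch (chr6:52221436-52221735, plus strand, RefSeq GRCm38) lies between Hoxa7 and Hoxa9, and the HoxC stretch (chr15:102963514-102963813, plus strand) lies between Hoxc10 and Hoxc11. Capitals again mark CANNTG or TATAAA.
HoxA, between Hoxa7 and Hoxa9: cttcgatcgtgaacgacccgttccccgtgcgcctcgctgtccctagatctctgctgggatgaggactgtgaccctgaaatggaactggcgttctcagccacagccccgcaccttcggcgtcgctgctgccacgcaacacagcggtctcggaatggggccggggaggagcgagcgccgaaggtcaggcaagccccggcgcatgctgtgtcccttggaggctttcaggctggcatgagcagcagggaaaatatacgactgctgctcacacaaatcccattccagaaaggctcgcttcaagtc
HoxC, between Hoxc10 and Hoxc11: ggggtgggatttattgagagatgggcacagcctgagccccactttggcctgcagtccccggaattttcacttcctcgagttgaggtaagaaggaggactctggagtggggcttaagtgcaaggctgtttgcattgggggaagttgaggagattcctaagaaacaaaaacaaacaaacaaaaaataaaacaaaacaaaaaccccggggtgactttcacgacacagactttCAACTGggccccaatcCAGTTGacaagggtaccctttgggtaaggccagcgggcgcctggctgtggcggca

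The HoxA stretch held 23 CpG and 0 E-boxes, and the HoxC stretch held 7 CpG and 2 E-boxes. These 2 stretches therefore differed in base composition while both were called in all 8 lists.

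HoxB had no block of neighboring genes called in all 8 lists. At female day 6, however, a single HoxB peak of 17943 bp (241st of 123249 by length) covered the starts of Hoxb8 and Hoxb7. It was longer than the longest peak of HoxA (11676 bp) or HoxC (10413 bp) in that list. Hoxb2, an anterior gene used in the hindbrain, was its only gene with a promoter peak in all 8 lists, with 37.8%, 31.0%, 19.5% and 27.3% of the window in the male lists and 12.5%, 23.5%, 68.3% and 72.8% in the female lists. Hoxb7 had 66.6%, 25.0%, 23.2% and 3.02% in the male lists, none in female vehicle, 58.7% at female day 4 and 100% at female days 6 and 8. Hoxb5 had 42.9%, 16.9%, none and 16.0% in the male lists and 12.5%, 24.2%, 100% and 74.9% in the female lists. Both genes of the middle of the cluster were thus touched in 7 lists, with the widest coverage at female days 6 and 8. Hoxb6 had a promoter peak in 6 lists, Hoxb3 and Hoxb4 in 5 and Hoxb8 in 4.

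Hoxb9, the paralogue of Hoxa9 and Hoxc9, had a promoter peak in 3 lists, with 12.5% in male vehicle, 12.5% at female day 4 and 47.1% at female day 6. Hoxb13, which stands 77.0 kb from Hoxb9, had one in the same 3 lists, with 12.5%, 5.75% and 41.4%. Hoxb1 had one in male vehicle alone (12.5%, a peak of 500 bp with 3.97 times the tags of the input). Female day 4 and female day 6 had a border with every gene on its proper side, between Hoxb1 and Hoxb2, with the peaks on the posterior side. This border rests on Hoxb1 as the only gene without a promoter peak in those lists, and 5 of the 8 lists had no promoter peak at Hoxb9 or Hoxb13, at the posterior end.

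HoxD had the least coverage, with no peak in its span at male day 6 or in female vehicle, 2 peaks at male day 4, 1 at male day 8, 7 in male vehicle and 6, 16 and 6 at female days 4, 6 and 8. Hoxd3, whose curated start lies between Hoxd8 and Hoxd4, had a promoter peak in 5 lists: 19.9% of the window in male vehicle, 12.5% at male day 8 and 22.5%, 41.3% and 47.6% at female days 4, 6 and 8. Hoxd9, the paralogue of Hoxa9, had 41.7% in male vehicle, 28.2%, 76.5% and 46.4% at female days 4, 6 and 8 and none in the other 4 lists. Hoxd10 had 16.5%, 12.5% and 55.2% in male vehicle, female day 4 and female day 6. The genes numbered 9 and 10 were therefore called in some lists here and in every list in HoxA and HoxC.

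Hoxd8 had a promoter peak in 3 lists, and Hoxd4 and Hoxd13 in 2. Hoxd12, used in the distal limb, had one at female day 6 alone (12.5%, 500 bp, 3.79 times the input), and Hoxd11 had none. Hoxd1 had one at male day 4 alone (11.5%, 500 bp, 10.4 times the input). As the only gene of HoxD with a promoter peak in that list, it set a border between Hoxd1 and Hoxd3 that rests on this peak. Together with those above, 7 of the 32 combinations of cluster and list had a border with every gene on its proper side, and 1 did with lists of equal length by findPeaks score.

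**Figure D3:**
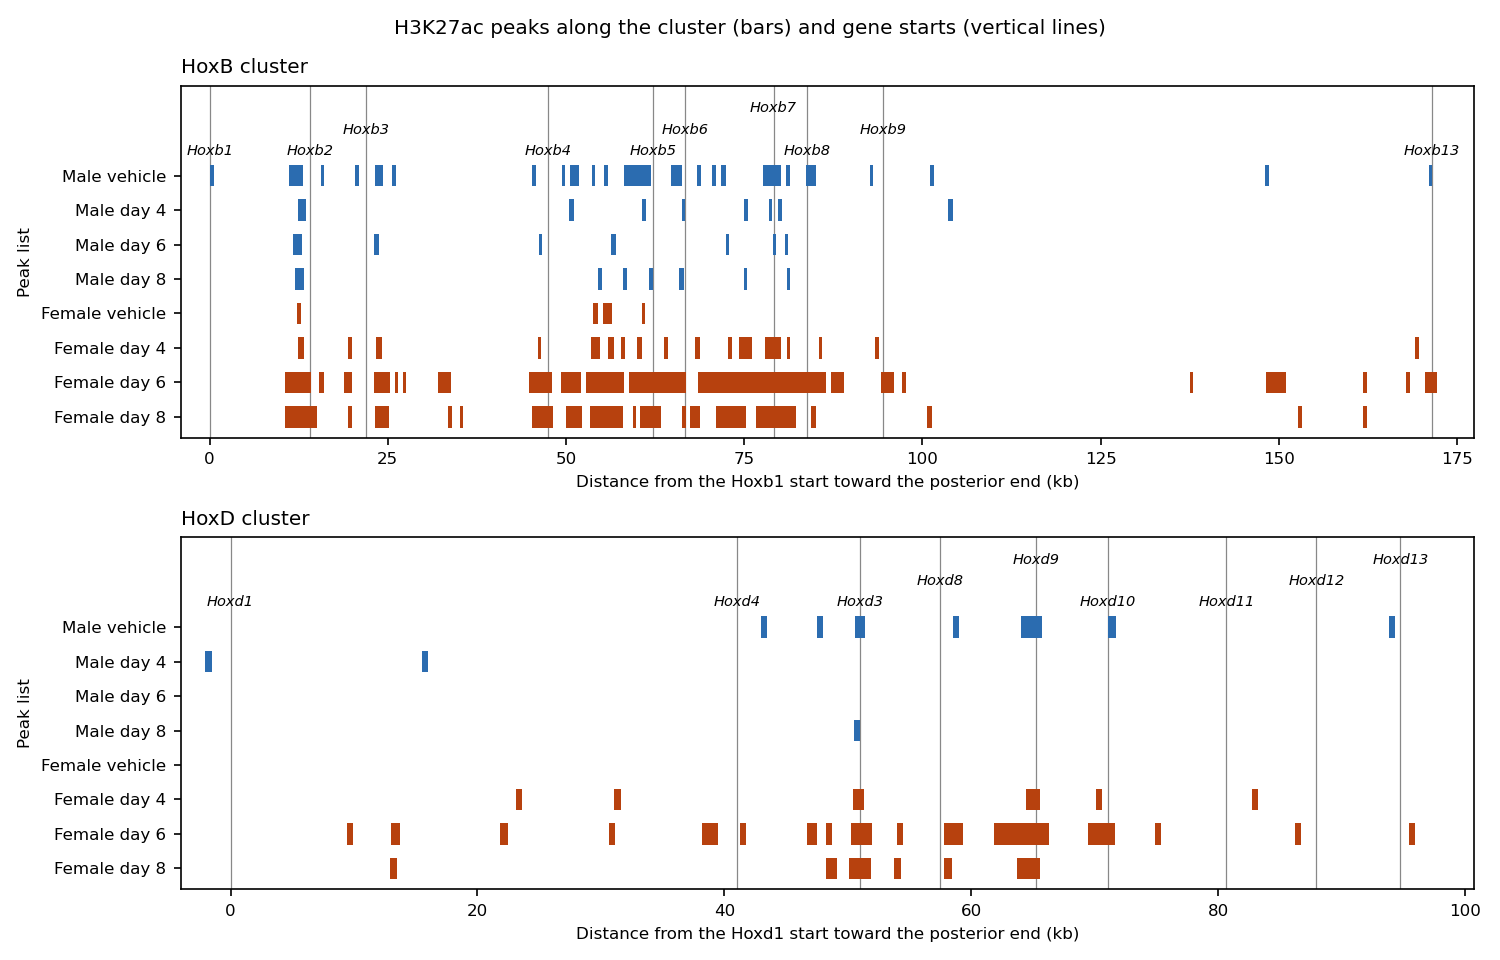
H3K27ac peaks (bars, blue for male and brown for female lists) along HoxB (top) and HoxD (bottom), against the distance in kb from the start of the most anterior gene toward the posterior end; vertical lines mark gene starts. HoxB has scattered short bars in most lists and wide ones at female days 6 and 8, and HoxD has 2 rows with no bar.

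Taken by paralogue number, a promoter peak was present in 56.2% of the combinations of gene and list for the genes numbered 1 to 3, in 64.2% for 4 to 8, in 75.0% for 9 and 10 and in 25.0% for 11 to 13. Over all protein-coding genes it was present in 45.3% of such combinations. For 9 and 10 the figure was 100% in HoxA and in HoxC, 43.8% in HoxD and 37.5% in HoxB, where only Hoxb9 exists. For 11 to 13 it was 25.0% in HoxA, 33.3% in HoxC, 37.5% in HoxB and 12.5% in HoxD. The mean share of the promoter window covered was 78.4% for Hoxc9 and Hoxc10 together, 55.8% for Hoxa9 and Hoxa10, 17.3% for Hoxd9 and Hoxd10 and 9.01% for Hoxb9. The 4 clusters share their libraries, and genes of a cluster share peaks, so these percentages describe the lists and are not independent observations.

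Compared with vehicle, fewer Hox genes had a promoter peak in males after prednisone and more in females. Of the 39 genes, 33 had one in the male vehicle list (54.9% of all protein-coding genes did), 15 in male day 4 (30.6%), 13 in male day 6 (31.4%) and 15 in male day 8 (33.7%). The female vehicle list had 10 (29.7% of all), female day 4 had 26 (52.9%), female day 6 had 33 (68.5%) and female day 8 had 28 (60.8%). As percentages of the Hox genes these were 84.6%, 38.5%, 33.3% and 38.5% in males and 25.6%, 66.7%, 84.6% and 71.8% in females. The Hox genes thus followed the direction of all genes in each sex. As deposited they stood above all genes in 7 lists, by little at male day 6 (33.3% against 31.4%), and below them in female vehicle.

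The direction against vehicle was the same when peaks over the whole gene were counted too. A peak over the gene or its promoter window was found for 34 Hox genes in male vehicle (69.9% of all genes), 21 in male day 4 (41.0%), 15 in male day 6 (44.9%) and 19 in male day 8 (44.1%). It was found for 12 in female vehicle (47.2%), 28 in female day 4 (66.2%), 33 in female day 6 (75.9%) and 28 in female day 8 (70.0%). The Hox genes then stood below all genes in female vehicle (30.8% against 47.2%) and also at male day 6 (38.5% against 44.9%).

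Gene by gene, 19 Hox genes had a promoter peak in male vehicle and not at male day 4 (26.1% of all genes did), 20 not at day 6 (25.6%) and 19 not at day 8 (23.0%). In male vehicle 84.6% of the Hox genes had one, against 54.9% of all genes. Of these, 19 of 33 Hox genes and 5684 of 11961 genes in all lacked it at day 4. At day 6 these were 20 of 33 and 5578 of 11961, and at day 8 they were 19 of 33 and 5018 of 11961. The share lost was thus larger among the Hox genes on each day, which was not tested. The other way, Hoxd1 had one at day 4 and not in vehicle (1.8% of all genes did), no Hox gene did at day 6 (2.07%) and Hoxc8 did at day 8 (1.86%). Against female vehicle, 16 Hox genes had a promoter peak only in the day 4 list of the pair (24.9% of all genes), 23 only in the day 6 list (40.0%) and 18 only in the day 8 list (32.3%). No Hox gene had one in female vehicle and lacked it at day 4 (1.7% of all genes did), day 6 (1.18%) or day 8 (1.19%). The 3 comparisons of a sex share 1 vehicle list.

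These differences changed in size when the lists were held to equal length, and by how much depended on how the peaks were ranked. With each list cut to the 17482 peaks that ranked first by findPeaks score, 13, 15, 11 and 15 Hox genes had a promoter peak in the male lists from vehicle to day 8, and 8, 11, 12 and 13 in the female lists (28.8%, 30.6%, 27.2% and 32.9% of all genes in males and 22.1%, 30.1%, 29.8% and 29.4% in females). With the same number chosen by normalized tag count, which favors long peaks, the numbers were 18, 15, 12 and 15 in males and 9, 15, 24 and 23 in females (33.0%, 29.0% and 32.8% of all genes in male vehicle, day 6 and day 8, and 23.0%, 39.5%, 44.4% and 43.1% in females). The male difference from vehicle was therefore not seen at days 4 and 8 by score and was smaller by tag count, while the female direction was the same both ways. At female day 4 the Hox genes stood below all genes both ways (28.2% against 30.1% by score and 38.5% against 39.5% by tag count). Of the 8 genes called in every list, Hoxa4 alone stayed in all 8 by score, and Hoxa3, Hoxa7, Hoxa9, Hoxa10, Hoxc9 and Hoxc10 stayed in all 8 by tag count. The score did not follow tag count. The Hoxc10 peak of male vehicle ranked 39th of 87600 by normalized tags (300.5) but had a score of 10 and was cut. A gene lost by score therefore need not have had a weak peak. Hoxa11 had a promoter peak in 1 list by score and 0 by tag count, and Hoxa13 in 0 both ways.

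**Figure D4:**
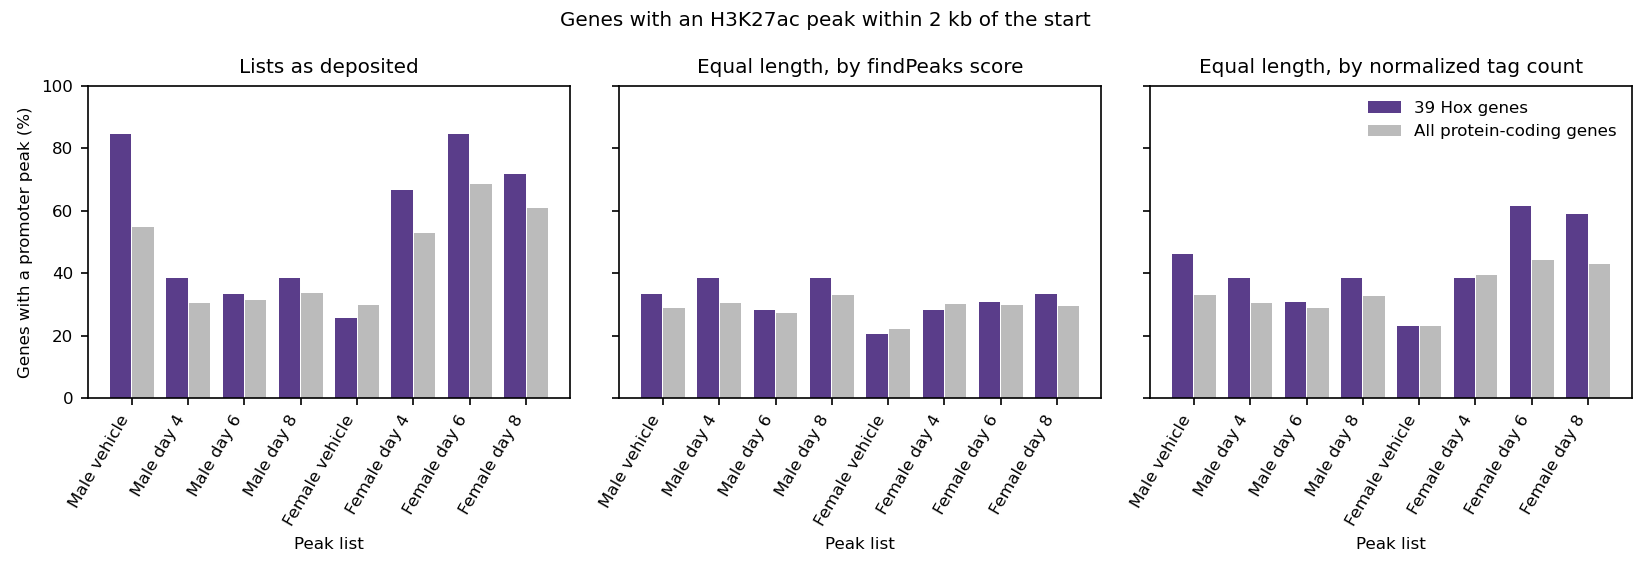
Percent of genes with an H3K27ac peak within 2 kb of the start in the 8 lists, for the 39 Hox genes (purple) and all 21774 protein-coding genes (grey), with lists as deposited (left) and held to 17482 peaks by findPeaks score (middle) or by normalized tag count (right). As deposited, the Hox percentage ranged from 25.6% in female vehicle to 84.6% in male vehicle and female day 6, and by score from 20.5% to 38.5%.

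The clusters also hold microRNA genes, and the miR-10 and miR-196 families target Hox messages. Their mature sequences from RefSeq are shown to compare family members that share a seed (bases 2 to 8, in capitals) by whether a peak lay over their hairpin. The seed AGGUAGU is shared by miR-196b of HoxA (chr6:52230129-52230150) and miR-196a of HoxB and HoxC, and ACCCUGU by miR-10a of HoxB (chr11:96317186-96317208) and miR-10b of HoxD (chr2:74726074-74726096).
miR-196b-5p: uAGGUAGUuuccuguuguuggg
miR-196a-5p: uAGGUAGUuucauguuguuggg
miR-10a-5p: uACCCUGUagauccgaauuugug
miR-10b-5p: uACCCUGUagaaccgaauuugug
miR-615-3p: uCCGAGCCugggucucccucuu

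A peak lay over the hairpin of Mir196b, between Hoxa9 and Hoxa10, in 7 lists, the exception being male day 6. Of the 2 genes for miR-196a, Mir196a-2 between Hoxc10 and Hoxc9 had one in the female day 6 and day 8 lists, and Mir196a-1 posterior to Hoxb9 had one in none. Mir615, within the Hoxc5 gene, had one at female days 6 and 8. Mir10a and Mir10b had none. Hairpins are spanned by peaks of neighboring promoters, and a peak over a hairpin is not a measure of the microRNA.

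Among long noncoding RNAs the HoxA transcripts Mira and Gm52902, the HoxB antisense transcripts Hoxb5os and Hoxb3os and the HoxC transcripts Gm36878 and Gm29905 had a peak within 2 kb of the start in all 8 lists, and LOC115490410 of HoxA and Gm53 of HoxB in none. Hottip, which lies beyond Hoxa13 and promotes the activity of the posterior HoxA genes, had one in male vehicle alone. This was the same peak of 679 bp that touched the Hoxa13 window, so the 2 calls are not separate. Hotair, transcribed between Hoxc11 and Hoxc12 and known for its contact with Polycomb, had one in female vehicle alone. Hoxa11os had one in the same 3 lists as Hoxa11, whose start it overlaps, and ChIP-Seq peaks have no strand. Gm52902 and Hoxb3os start within 2 kb of the Hoxa9 and Hoxb2 starts, so their calls are not separate from the calls at those genes. No share over all noncoding genes is given here beside these calls.

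Hox proteins bind DNA together with TALE homeodomain cofactors, and of 9 such genes 6 had a promoter peak in each of the first 5 lists (male vehicle to female vehicle), 7 at female day 4 and 9 at female days 6 and 8. Pbx2, Pbx3, Meis1, Pknox1 and Pknox2 had one in all 8 lists. Of 13 Polycomb and Trithorax genes, between 8 (male day 6) and 13 (female days 4, 6 and 8) had one, with Eed, Ring1, Rnf2, Kmt2d and the H3K27 demethylase gene Kdm6b in all 8. Of 5 regulators of Hox transcription, the retinoic acid receptor gene Rarg had one in all 8 lists. Over all protein-coding genes these percentages ran from 29.7% to 68.5% by list, as given above, and the cofactor and chromatin lists were not tested.

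Of 12 limb identity genes, 8, 5, 2 and 4 had a promoter peak in the male lists and 2, 6, 11 and 8 in the female lists. As percentages these were 66.7%, 41.7%, 16.7% and 33.3% in males and 16.7%, 50.0%, 91.7% and 66.7% in females. All protein-coding genes stood at 54.9%, 30.6%, 31.4% and 33.7% in males and 29.7%, 52.9%, 68.5% and 60.8% in females. Tbx15, which acts in muscle and the proximal limb, had one in all 8 lists. The hindlimb genes Pitx1 and Tbx4 had one in 2 lists each (female days 4 and 6 for Pitx1 and female days 6 and 8 for Tbx4), and the forelimb gene Tbx5 had one in 4. Of 10 genes that flank the clusters, the metabolic gene Hibadh beyond HoxA had one in all 8 lists and Skap1 beyond HoxB in none. Of all protein-coding genes, 16.2% had one in all 8 lists and 24.7% in none.

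The myofiber label was checked by promoter peaks of 9 fiber genes: Ckm, Mylpf and Tnnt3 had one in all 8 lists, and 6, 5, 7 and 6 of the 9 had one in the male lists and 6, 8, 8 and 9 in the female lists. Markers of other cells were called as well, and more so in the long lists. The same holds for all protein-coding genes. Of these, 54.9%, 30.6%, 31.4% and 33.7% had a promoter peak in the male lists and 29.7%, 52.9%, 68.5% and 60.8% in the female lists. A called marker alone therefore does not show which cells were present. Of 5 fibroblast genes 3, 1, 1 and 0 had a promoter peak in the male lists and 0, 3, 3 and 3 in the female lists, and of 5 endothelial genes 5, 2, 5 and 2 and 1, 4, 5 and 5. Of 3 satellite cell genes 2, 0, 0 and 0 and 0, 2, 3 and 3 had one, and of 4 smooth muscle and pericyte genes 2, 0, 0 and 0 and 1, 2, 4 and 4. Of 4 immune genes 1, 0, 0 and 1 and 0, 1, 2 and 2 had one, of 3 adipocyte genes 0, 0, 1 and 0 and 0, 1, 2 and 2, and of 2 Schwann genes none in males and 0, 0, 2 and 1 in females. Lum, Ptprc, Adgre1 and Adipoq, markers of fibroblasts, immune cells and adipocytes, had one in no list, and the endothelial gene Pecam1 had one in all 8. Other markers of these cells were called, among them Pdgfra and Cd68 in 5 lists each and Col1a1 and Fabp4 in 4 each. The part of other cell types in the Hox peaks was not tested, and more cells of a type and more acetylation per cell cannot be told apart in these samples.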

How the data were processed

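Chromatin of 16 H3K27ac libraries (2 per group) and 8 inputs was sequenced. In the authors' processing, reads were trimmed (homerTools) and aligned to mm10 by Bowtie2 2.2.6 (TopHat2 2.1.0 is also named in the submitters' processing notes), and HOMER findPeaks was run in histone style against input with a fold threshold of 2. One list per group was deposited. How the 2 libraries were combined is not given in the sources used here.

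The deposited normalized tag count is a signal that the authors scaled for depth. The deposited findPeaks score and the deposited ratio (fold over input) served to rank, filter or describe peaks within a list. Depth was recovered from the deposited tag counts, the deposited p-value was not used, and no list was compared with another by level.

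Genes and starts came from RefSeq (GRCm38.p6). Peaks were scored by an overlap of 1 bp or more over each gene and over 2 kb to each side of its start. A border was the split of a cluster with the fewest genes on the wrong side. Named genes follow a rule: each Hox gene accounted for (the results of 1 Hox gene are not reported here, though counts include it), values in every list for genes with a promoter peak in the most lists, at a border or in a single list, and of other lists the members in all 8 lists or in none. Hottip, Hotair, Hoxa11os, Pitx1, Tbx4 and Tbx5 were named after their values were seen. The members and lists were chosen with earlier results of these data known. Alternatives were a window of 1 or 5 kb, an overlap of 200 bp, a fold of at least 4 and lists of 17482 peaks by score. Any RefSeq start, and lists of 17482 peaks by normalized tag count, were added after seeing the data. On a simulated list 3000 of 3000 planted windows were recovered, and bedtools 2.31.1 gave the same 3000 overlaps. The border step recovered 52 of 52 planted borders. These had no gene on the wrong side and all had the peaks anterior, so they check the code and not the borders reported. Python 3.11.15, numpy 2.4.6, pandas 2.3.3, matplotlib 3.10.9 and samtools 1.23.1 were used.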

Additional observations from a re-analysis of the deposited data

Results flagged for a closer look

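The number of Hox genes with a promoter peak moved in opposite directions in the sexes after prednisone, which was not tested because each group has 1 list. The count minus that of vehicle was -18 for male day 4, -20 for male day 6 and -18 for male day 8. It was 16 for female day 4, 23 for female day 6 and 18 for female day 8. The percentage of all protein-coding genes moved the same way, from 54.9% in male vehicle to 30.6%, 31.4% and 33.7%, and from 29.7% in female vehicle to 52.9%, 68.5% and 60.8%. With lists of equal length by score, male vehicle held 13 such Hox genes against 15, 11 and 15, and female vehicle 8 against 11, 12 and 13. Whether these differences would be seen between replicate libraries was not tested.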

How the results depend on the processing

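No paired analysis was possible because 1 list per group was deposited, with no values per library, and for the same reason leaving out replicates was not run. Of 112 values of 33 counts under other settings, 79 were within 1.5 times the reported count. With lists of equal length by score, Hox genes with a promoter peak numbered 13 in male vehicle and 11, 12 and 13 at female days 4, 6 and 8, and those with a peak over the gene or promoter 17, 14, 13 and 16. With a fold of at least 4, promoter peaks numbered 20 in male vehicle, 6 at male day 6 and 8 at male day 8, and gene or promoter peaks 12 at male day 8. With a 1-kb window female vehicle had 6. With equal length by tag count, male vehicle had 18 and female day 4 had 15. Lists with no promoter peak at Hoxb9 and Hoxb13 numbered 8 by score and 8 by tag count (5 as deposited), and those with none at Hoxa11 and Hoxa13 numbered 8 by tag count. Borders with every gene on its proper side numbered 1 by score, 4 by tag count and 4 with a 1-kb window. With equal length by score, gained and lost promoter peaks against vehicle numbered 6 and 4 at male day 4, 5 and 7 at day 6 and 6 and 4 at day 8, and 8 and 5, 7 and 3, and 10 and 5 at female days 4, 6 and 8. Hox genes called in all 8 lists numbered 3 with a 1-kb window, 10 with any RefSeq start and 0 with a fold of at least 4. The male day 4 list had the fewest tags, so a peak missing from it may lie below what that depth can show.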
